A study of Mus musculus with 2 samples.

Results

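Mural cells are the cells that wrap small blood vessels: pericytes on capillaries and smooth muscle cells on arterioles and arteries. Here they are 689 of the 17162 cell barcodes that passed quality limits in 2 single-cell libraries of mouse mitral valve leaflets taken at stage E17.5, late in gestation. The members were chosen by their own counts: at least 5 UMIs (unique molecular identifiers, each standing for 1 captured RNA molecule) summed over Rgs5, Kcnj8, Abcc9, Higd1b and Myh11, with this sum above each of 3 sums of stromal genes. Barcodes with more than 2 UMIs of Pecam1, Cdh5 and Egfl7, or with 150 or more cardiomyocyte UMIs per 10000, were left out. All of these genes were used to select the cells, so their levels are given as a description and not as a finding.

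The mutant library came from embryos labelled Nfatc1-Cre, Dicer loxp/loxp, and the control library from wild type embryos. The labels state no Cre-only or loxP-only control. Each library pooled leaflets of 3 to 4 hearts, dissociated with 0.05% trypsin and sorted to remove dead cells before 3′ single-cell RNA sequencing. Nfatc1-Cre is active in the endocardial lineage, which lines the heart and gives rise to much of the valve, and the labels do not state whether mural cells of these embryos carried the recombined allele. Dicer1 encodes the enzyme that cuts microRNA precursors into mature microRNAs. With 1 library per genotype there is no replicate and no test: every interval is a 95% interval that covers counting error only, and genotype, pool and library preparation cannot be told apart.

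Pericytes share a basement membrane with the endothelium, depend on PDGF-B from endothelial cells acting on the receptor PDGFRB, and carry the ATP-sensitive potassium channel made of KCNJ8 and ABCC9. Smooth muscle cells wrap the vessel wall in layers and contract through smooth muscle myosin, actins and their regulators, a gene programme driven by serum response factor and its partner myocardin through DNA elements called CArG boxes. NOTCH3, a receptor for endothelial ligands, is used by both. Intermediate forms between pericytes and smooth muscle are known along the vessel tree, and in the heart pericytes are known to give rise to coronary smooth muscle.

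To describe pericyte against smooth muscle genes, mural cells were split by the genes that chose them. A cell is called pericyte-side when Kcnj8, Abcc9 and Higd1b together had at least 2 UMIs and more than 2 times the UMIs of Myh11, the smooth muscle myosin heavy chain. It is called smooth-muscle-side when Myh11 had at least 2 UMIs and more than 2 times that sum, and between in all other cases. The promoter windows of a pair of genes at the smooth muscle end and of the pair of neighbouring channel genes at the pericyte end are shown because they let the reader see the element the contractile programme is known for. They run from 250 bases before to 50 bases after the annotated start (RefSeq, GRCm38.p6), 5′ to 3′ on the gene's strand, and capitals mark a CArG box in its strict form, with no differing base. Myl9, on the plus strand, lies at chr2:156775214-156775513, Acta2, on the minus strand, at chr19:34255324-34255623, Kcnj8, on the minus strand, at chr6:142571565-142571864, and Abcc9, on the minus strand, at chr6:142702225-142702524.
Myl9: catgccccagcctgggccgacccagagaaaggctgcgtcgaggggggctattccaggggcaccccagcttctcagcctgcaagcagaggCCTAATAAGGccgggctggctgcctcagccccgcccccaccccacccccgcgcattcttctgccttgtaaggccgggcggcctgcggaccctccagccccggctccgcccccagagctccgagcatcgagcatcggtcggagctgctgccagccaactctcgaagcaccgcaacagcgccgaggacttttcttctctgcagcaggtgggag
Acta2: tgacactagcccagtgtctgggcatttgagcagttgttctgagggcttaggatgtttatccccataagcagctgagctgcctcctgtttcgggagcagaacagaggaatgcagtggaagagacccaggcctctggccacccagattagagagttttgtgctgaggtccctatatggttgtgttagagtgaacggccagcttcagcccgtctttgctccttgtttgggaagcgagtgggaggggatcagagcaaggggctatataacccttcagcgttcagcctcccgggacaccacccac
Kcnj8: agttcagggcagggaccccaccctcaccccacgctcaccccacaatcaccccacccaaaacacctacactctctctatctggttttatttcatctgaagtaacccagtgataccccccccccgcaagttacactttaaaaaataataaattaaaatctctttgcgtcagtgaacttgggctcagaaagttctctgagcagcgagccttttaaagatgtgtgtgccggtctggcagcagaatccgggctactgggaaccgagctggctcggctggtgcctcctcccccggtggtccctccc
Abcc9: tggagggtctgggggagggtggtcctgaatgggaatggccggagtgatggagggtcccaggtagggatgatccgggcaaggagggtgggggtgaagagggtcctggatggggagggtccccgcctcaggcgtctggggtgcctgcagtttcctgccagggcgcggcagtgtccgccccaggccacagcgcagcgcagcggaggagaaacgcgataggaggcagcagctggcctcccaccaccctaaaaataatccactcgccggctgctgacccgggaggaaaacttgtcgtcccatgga

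The CArG box of Myl9, which encodes a regulatory light chain of myosin, begins 161 bases before the start. A strict CArG box on either strand was found in the windows of 425 of 27025 genes in the RefSeq table (1.57%). It was found in 4 of the 35 matched genes of a list of 44 contractile smooth muscle genes (11.4%), which are Myl9, Cnn2, Ldb3 and Rergl, and in 0 of the 21 matched genes of a list of 28 pericyte genes. Of the 12 genes named below for the smooth-muscle side 6 were matched, and 0 of these held one. No match says only that the strict form is absent from this window. Forms with a differing base, such as the CArG elements known from the Acta2 promoter, were not searched, so the lack of capitals in the Acta2 window does not mean that it lacks CArG elements. Tagln and Myh11 had no entry in the table. A match is a description of sequence and not a binding site shown by these data.

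The mutant library held 338 mural cells among 6403 barcodes past the limits, a share of 5.28% (4.74 to 5.85), and the control library 351 among 10759, a share of 3.26% (2.93 to 3.62). Library depth differed in the same direction: mural cells had a median of 9046 UMIs and 3090 genes in the mutant library and of 6591 UMIs and 2531 genes in the control library. After every cell was thinned to 3000 UMIs and the rule applied again, the shares were 4.85% in the mutant and 2.65% in the control library. Fewer cells of other types and more mural cells cannot be told apart from a share. Over the rule genes the sum had a median of 26 UMIs per mutant member and 18 per control member. The summed mural counts came to 3152542 UMIs in the mutant and 2325853 in the control library. Libraries shared 19 of their deposited barcode sequences, 11 of those past the limits and 0 of those of mural cells.

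The edge of the rule was thinly filled. Just inside it, with 5 or 6 UMIs of the 5 genes, were 16 mutant and 27 control cells, and just outside it, with 3 or 4 UMIs and all other limits met, were 15 mutant and 36 control cells. Pdgfrb, a marker that the rule did not use, stood at 994 CPM (UMIs of the gene per 1000000 summed UMIs) just inside and 212 CPM just outside in the mutant library, and at 330 CPM just inside and 275 CPM just outside in the control library. Ndufa4l2, a mitochondrial protein used as a pericyte marker, stood at 199 CPM inside and 70.7 CPM outside in the mutant library, and at 647 CPM inside and 286 CPM outside in the control library.

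Markers that the rule did not use were in place. Pdgfrb, the PDGF receptor of mural cells, had 558 CPM in mutant and 488 CPM in control mural cells. In endothelial cells, taken by at least 5 UMIs of Pecam1, Cdh5 and Egfl7, it had 8.95 CPM in the mutant and 14.5 CPM in the control library. Notch3 had 347 CPM in mutant and 254 CPM in control mural cells, and its highest level in any of 6 comparison classes was 86.6 CPM in the mutant and 96.2 CPM in the control library, both in fibroblasts with Ccn3 and Tcf21. Ndufa4l2 had 1276 CPM in mutant and 1065 CPM in control mural cells, against at most 297 CPM in a comparison class of the mutant and 231 CPM in one of the control library, both fibroblasts with Dlk1 and Smoc2. The label of mural cells held by these markers. Tagln, however, had 872 CPM in mutant and 648 CPM in control mural cells beside 532 CPM in the mutant and 708 CPM in the control fibroblasts with Ccn3 and Tcf21. A weak marker was Vtn, which encodes vitronectin and marks brain pericytes and was detected in 44 of 338 mutant and 21 of 351 control mural cells, with 63 UMIs in the mutant and 31 UMIs in the control members.

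**Figure D1:**
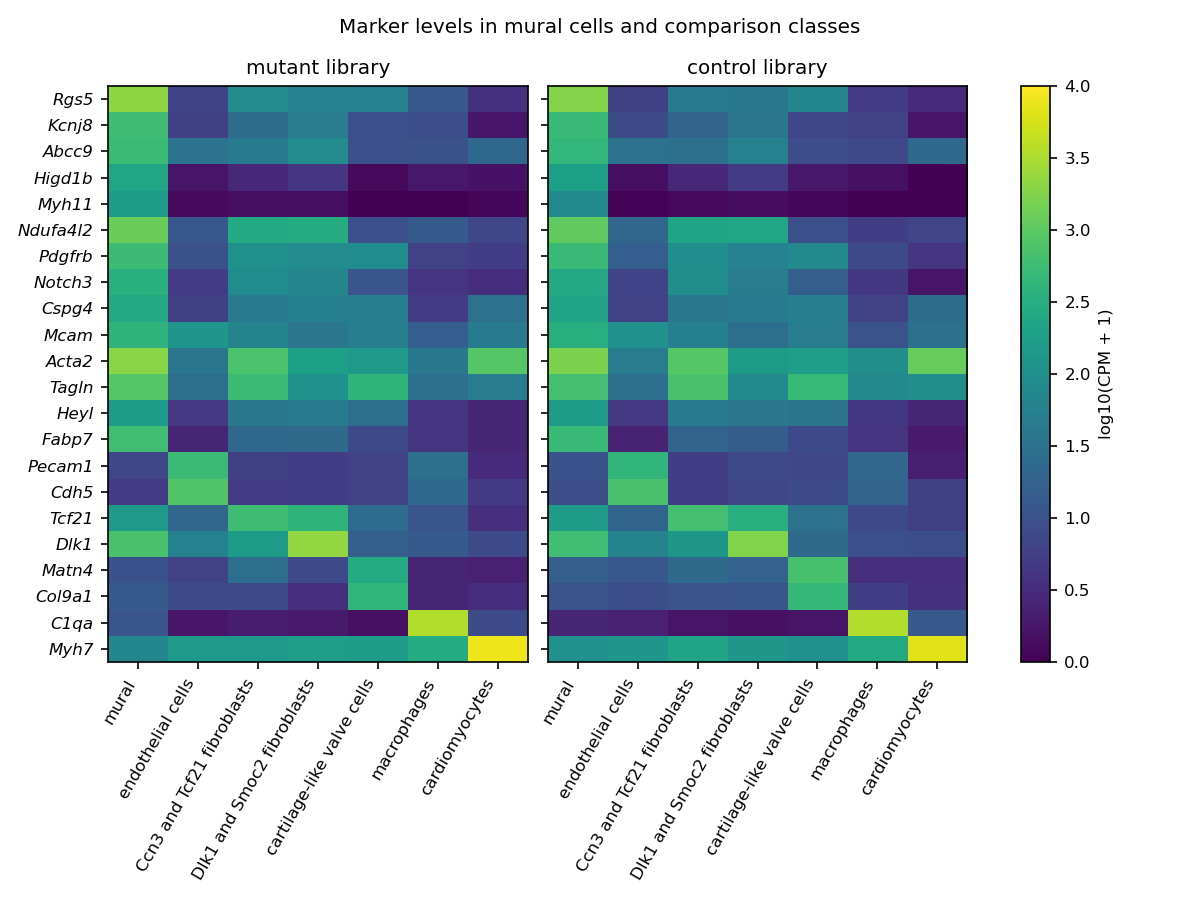
Levels of 22 marker genes (rows) in mural cells and 6 comparison classes (columns) of the mutant library (left panel) and the control library (right panel), as log10 of CPM plus 1, from summed counts with no replicates. The mural columns are highest for the upper 14 genes, from Rgs5 to Fabp7, except that Tagln of the control library is higher in the Ccn3 and Tcf21 fibroblasts. The lower 8 genes mark the other classes.

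Per cell, the share with a UMI followed the same order once depth was set equal. At 3000 UMIs per cell, which left out 35 shallower mutant and 31 control members, Pdgfrb had a UMI in 72.3% of mutant (66.9 to 77.2) and 73.8% of control mural cells (68.6 to 78.5), against 1.65% of mutant and 3.59% of control endothelial cells. Without thinning these shares of mural cells were 94.97% in the mutant and 91.17% in the control library. Notch3 had a UMI in 60.4% of mutant (54.6 to 65.9) and 48.4% of control mural cells (42.8 to 54.1), against 0.978% of mutant and 1.15% of control endothelial cells. Unthinned, Notch3 was seen in 84.0% of mutant and 71.2% of control mural cells. Fabp7, a fatty acid binding protein of glia and their precursors, had a UMI in 52.8% of mutant and 46.3% of control mural cells at equal depth and in 0.566% of mutant and 0.359% of control endothelial cells. The neural crest factor Sox10 had 0 UMIs in the 303 mutant and 0 in the 320 control thinned members, which allows a share of members with a Sox10 UMI at this depth of up to 1.21% in the mutant and 1.15% in the control library (exact upper limits) and sets no limit on cells expressing it.

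Traces of other cell types were measured by their marker lists. The 14 endothelial markers summed to 364 CPM in mutant and 331 CPM in control mural cells, against 14399 CPM in mutant and 11810 CPM in control endothelial cells. The 10 macrophage markers summed to 96.7 CPM in mutant and 79.1 CPM in control mural cells, and the 8 erythroid markers to 8.56 CPM in mutant and 278 CPM in control mural cells. The 14 cardiomyocyte markers summed to 812 CPM in mutant and 1274 CPM in control mural cells, and of the 7 that reached a mean of 50 CPM, 5 had a mutant level lower by 1.5-fold or more and 0 a higher one. Stromal lists were higher: the markers of Dlk1 and Smoc2 fibroblasts summed to 1515 CPM in mutant and 1460 CPM in control mural cells, against 7807 CPM in mutant and 6429 CPM in control fibroblasts of that class. Those of Ccn3 and Tcf21 fibroblasts summed to 738 CPM in mutant and 720 CPM in control mural cells, those of cartilage-like valve cells to 239 CPM in mutant and 258 CPM in control ones, and those of fibrous valve cells to 33.0 CPM in mutant and 74.8 CPM in control ones. Epicardial markers summed to 37.4 CPM in mutant and 46.4 CPM in control mural cells, and melanocyte markers to 4.44 CPM in mutant and 4.73 CPM in control ones. The Schwann and neural crest list summed to 615 CPM in mutant and 536 CPM in control mural cells, of which Fabp7 made 592 CPM in the mutant and 519 CPM in the control. The part of free RNA in these sums was not tested. Scrublet called 8 of the mutant mural cells doublets (2.37%) and 8 of the control ones (2.28%), and they were kept because the rule keeps them.

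The pools also differed in sex. A cell with a UMI of Xist and none of 4 Y-linked genes is called female-type and the opposite male-type. The mutant members held 133 of female type (39.3%), 124 of male type (36.7%) and 81 undecided ones, and the control members 334 of female type (95.2%), 0 of male type and 17 undecided ones. The mural share was 4.90% among female-type cells and 5.30% among male-type cells in the mutant library, against 3.32% among female-type cells in the control library.

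By this cut most members fell on the pericyte side. The member rule and the cut use the same genes, 3 of pericytes and 1 of smooth muscle, so these shares depend on that choice and are given as a description. In the mutant library 288 cells were pericyte-side (85.2%, 81.0 to 88.8), 38 between (11.2%) and 12 smooth-muscle-side (3.55%, 1.85 to 6.12). In the control library 303 were pericyte-side (86.3%, 82.3 to 89.7), 39 between (11.1%) and 9 smooth-muscle-side (2.56%, 1.18 to 4.81). The intervals of each share overlapped between the libraries. The limits of the split lay within 1 UMI of 11 mutant and 9 control cells. The smooth-muscle side rests on 141462 UMIs in the mutant and 84846 UMIs in the control library, so values there are the least precise ones given.

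Myh11 itself was detected in few cells. It had 0 UMIs in 275 mutant and 308 control mural cells, 1 UMI in 18 mutant and 16 control cells, and 2 or more in 45 mutant (13.3%) and 27 control cells (7.69%). At equal depth the share with a UMI was 12.5% (9.03 to 16.8) in the mutant and 9.69% (6.68 to 13.5) in the control library, and in endothelial cells it was 0.0515% in the mutant and 0.0719% in the control library. Most cells with 2 or more Myh11 UMIs also had 2 or more UMIs of the pericyte sum: 38 of 45 in the mutant and 21 of 27 in the control library. Across the 3 Myh11 classes, from 0 to 1 to 2 or more UMIs, Acta2 stood at 1044, 2860 and 5377 CPM in the mutant library and at 1069, 2814 and 5777 CPM in the control library. Kcnj8 went the other way, at 643, 525 and 276 CPM in the mutant library and 554, 524 and 206 CPM in the control library, whereas Pdgfrb stood at 628, 443 and 310 CPM in the mutant and 512, 431 and 315 CPM in the control library.

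**Figure D2:**
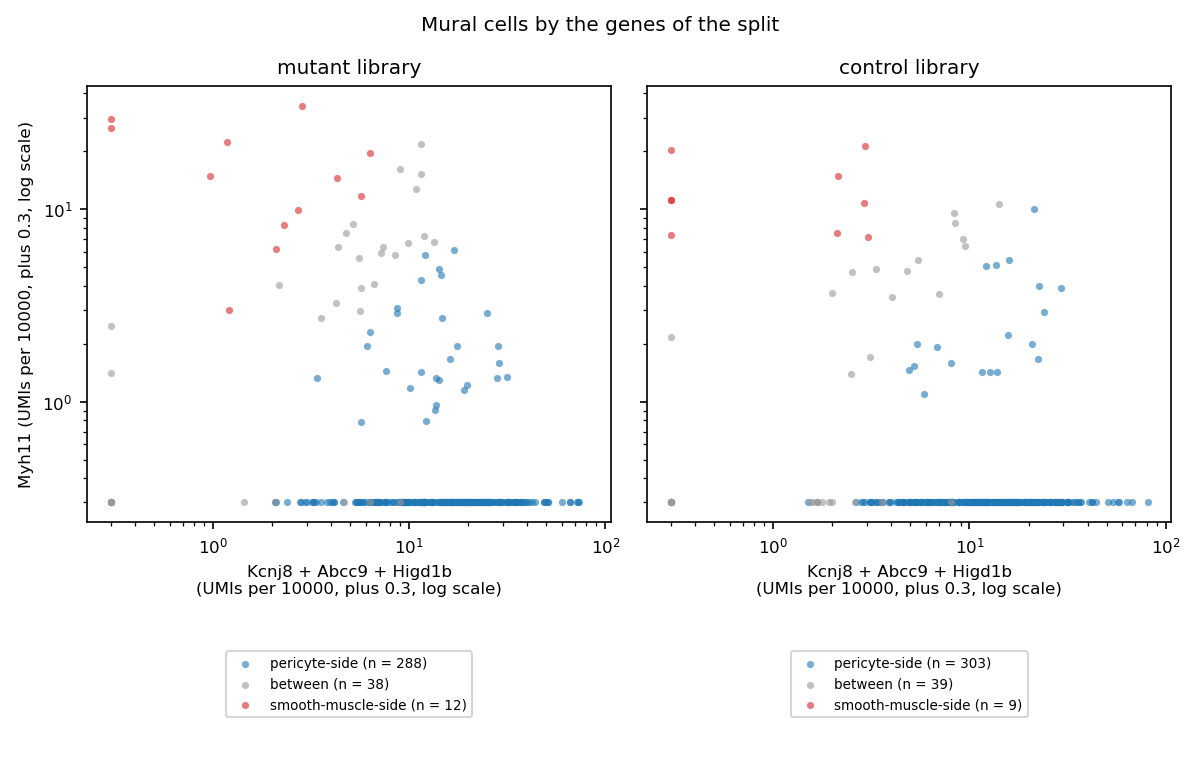
Each point is 1 mural cell of the mutant library (left panel) or the control library (right panel), by its UMIs per 10000 of Kcnj8, Abcc9 and Higd1b (x axis) and of Myh11 (y axis), both with 0.3 added on log scales. Points on the lowest line have 0 Myh11 UMIs, which is 275 mutant and 308 control cells, and the 12 mutant and 9 control smooth-muscle-side cells sit at the upper left of a scatter with no gap.

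Pericyte-side against smooth-muscle-side cells showed which genes went with the split. A gene was counted when the log2 ratio of pericyte-side over smooth-muscle-side CPM, with 0.5 counts added, was past 1 in the same direction in both libraries. Of the 3279 genes with a mean of at least 50 CPM over the 4 sums, the 4 genes of the split left out, 69 (2.1%) were at least 2-fold higher on the pericyte side in both libraries and 136 (4.15%) at least 2-fold lower there. In 57 of the 69 and 108 of the 136 the counting intervals of both libraries lay on the same side of 0. The median log2 ratio over all genes was -0.09 in the mutant and -0.10 in the control library. Another 9 genes were at least 2-fold apart in opposite directions in the libraries. Both sides are cut from counts of the same cells and the cells of a side share 1 library, so these are descriptions without a test. The shares of 2.1% and 4.15% over all genes are the background for the list counts below.

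The contractile genes stood at the smooth muscle end. Of the 44 genes of the list, 31 reached the level floor outside the split, 18 of them were at least 2-fold higher on the smooth-muscle side in both libraries and 1 (Tagln2) on the pericyte side. The median log2 ratio of the 31 was -2.34 in the mutant and -1.35 in the control library. Over all mural cells 26 genes of the list reached the floor, Myh11 among them. Some of the 31 therefore reached it through the smooth-muscle side, so the count of 18 and the median are partly set by the floor. Acta2, the smooth muscle actin, had 1218 CPM in pericyte-side, 4102 in between and 10399 in smooth-muscle-side cells of the mutant library, and 1185 CPM in pericyte-side, 3486 in between and 6176 in smooth-muscle-side cells of the control library. Its log2 ratio was -3.09 (-3.18 to -3.00) in the mutant and -2.38 (-2.52 to -2.24) in the control library. Tagln, which encodes the actin-binding protein SM22, had 481, 1769 and 5881 CPM on the pericyte side, between and on the smooth-muscle side of the mutant library, and 421, 1788 and 2487 CPM along the same axis of the control library. For both genes the between cells stood between the ends in each library. Between is the class left over by the cut, so it mixes cells with few UMIs of either gene set and cells with both. Its median was 2 Myh11 UMIs and 1.5 UMIs of the pericyte sum in the mutant library. In the control library it was 0 Myh11 UMIs and 1 UMI of the pericyte sum. Its level is therefore not that of intermediate cells alone.

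Single cells overlapped in Acta2. Per 10000 UMIs, mutant pericyte-side cells ran from 0 over a median of 4.35 to 147, and mutant smooth-muscle-side cells from 33.9 over 92.5 to 168. Control pericyte-side cells ran from 0 over a median of 5.70 to 182, and control smooth-muscle-side cells from 20.2 over 60.8 to 119. The quartiles of the sides did not overlap, but the highest pericyte-side cells reached the level of smooth-muscle-side cells in each library. Some cells with the channel genes and little Myh11 therefore held as much smooth muscle actin as cells at the other end.

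Other parts of the contractile machinery followed. Myl9 had 338, 1253 and 3499 CPM from the pericyte side over between to the smooth-muscle side in the mutant library, and 261, 1118 and 1768 CPM in the control library. Mylk, the kinase that phosphorylates this light chain, had 173, 647 and 997 CPM along the axis in the mutant library and 147, 541 and 884 CPM in the control library. Its log2 ratio was -2.53 (-2.80 to -2.25) in the mutant and -2.60 (-2.96 to -2.21) in the control library. Actg2, an actin of visceral and vascular smooth muscle, had 43.1, 217 and 855 CPM along the axis in the mutant library and 35.3, 125 and 436 CPM in the control library. Lmod1, which nucleates actin filaments in smooth muscle, had 12.1, 96.0 and 226 CPM in the mutant library and 2.52, 38.9 and 200 CPM in the control library. Ppp1r12b, a subunit of myosin phosphatase, had a log2 ratio of -3.31 (-4.09 to -2.46) in the mutant and -3.94 (-5.01 to -2.80) in the control library. The small heat shock protein Hspb1 had a ratio of -3.90 in the mutant and -2.45 in the control library, and Cryab, another of its family, of -3.09 in the mutant and -2.24 in the control library.

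Of these, Tagln2 was the list member on the other side: 1166 CPM in pericyte-side and 509 CPM in smooth-muscle-side mutant cells, against 1157 CPM in pericyte-side and 495 CPM in smooth-muscle-side control cells. It is an actin-binding relative of Tagln that many cell types express. Tpm2, a tropomyosin, passed 2-fold in the mutant library and not in the control, with a ratio of -1.82 (-1.99 to -1.63) in the mutant and -0.35 (-0.70 to 0.05) in the control library. Cnn2, calponin 2, had -1.44 (-1.74 to -1.11) in the mutant and -0.13 (-0.70 to 0.57) in the control library. These differences between libraries rest on 12 mutant and 9 control cells and were not tested.

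**Figure D3:**
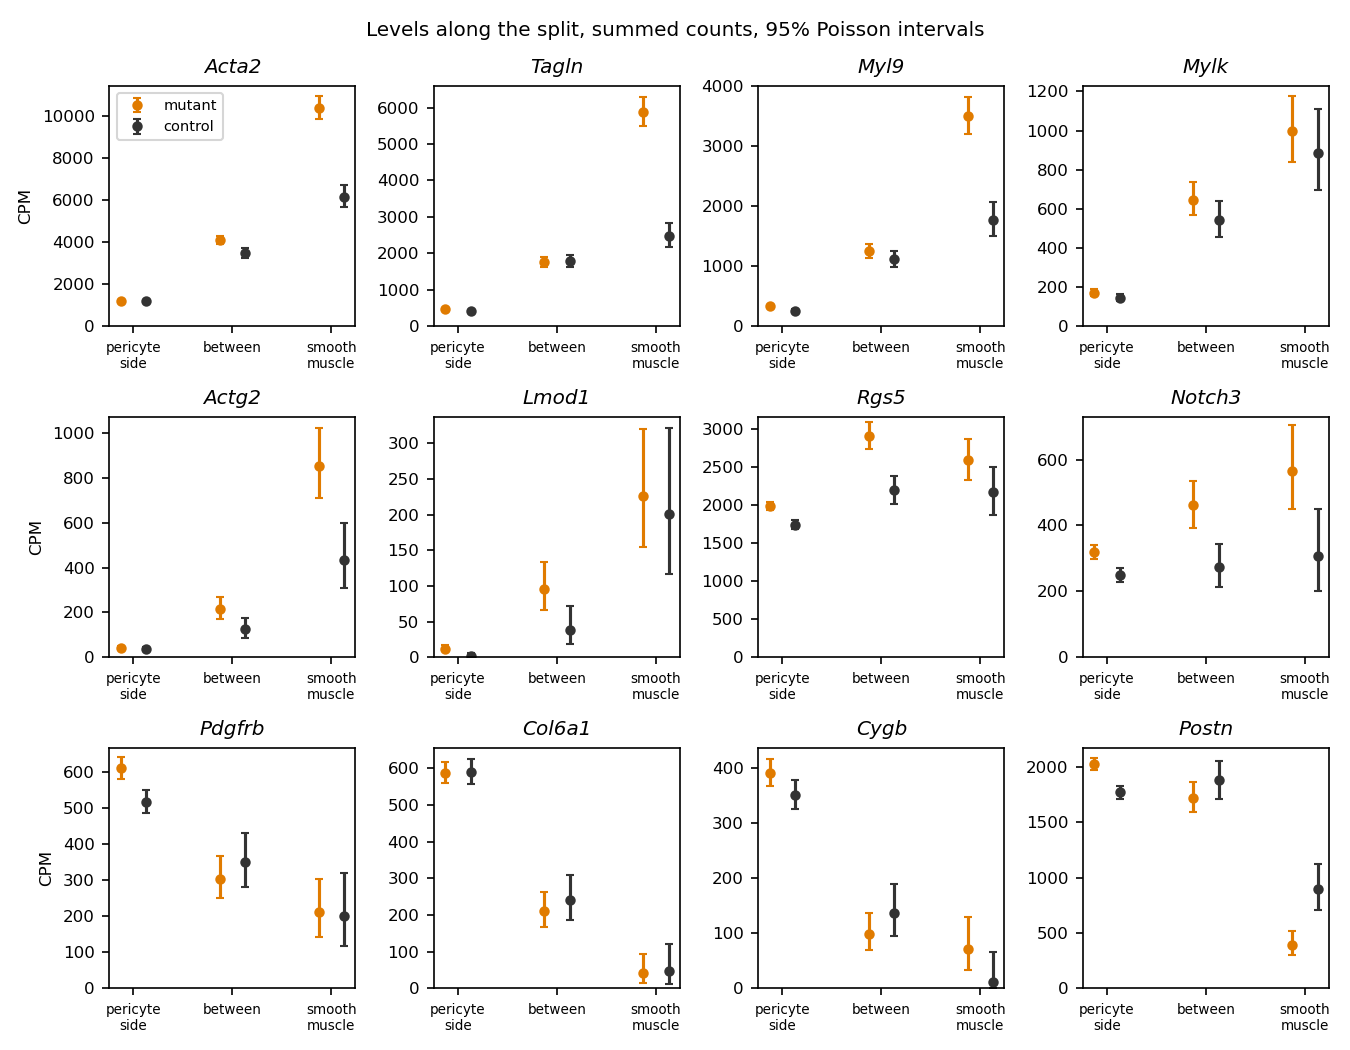
Level of 12 genes in CPM (y axes from 0) in pericyte-side, between and smooth-muscle-side mural cells (x axis) of the mutant (orange, left of each pair) and control library (dark, right of each pair), with exact 95% Poisson intervals from summed counts. Acta2, Tagln, Myl9, Mylk, Actg2 and Lmod1 are highest in smooth-muscle-side cells, Pdgfrb, Col6a1, Cygb and Postn are lowest there, and Rgs5 stays between 1739 and 2906 CPM.

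Myocardin was counted from few UMIs. Myocd had 6.42 CPM in pericyte-side, 71.3 in between and 77.8 in smooth-muscle-side mutant cells, and 5.54 CPM in pericyte-side, 27.3 in between and 118 in smooth-muscle-side control cells. Its log2 ratio was -3.62 (-4.78 to -2.36) in the mutant and -4.42 (-5.79 to -3.02) in the control library, from 11 UMIs on the smooth-muscle side of the mutant and 10 on that of the control library. A gene can pass the floor of 50 CPM, a mean of the 4 sums, through its level on 1 side alone, and Myocd did so through the smooth-muscle side, so its place at that end is partly set by the floor. Of the 14 measured members of the list of serum response and vessel transcription factors, 0 were at least 2-fold higher on the pericyte side and 2 on the smooth-muscle side in both libraries. Over all genes these shares were 2.1% and 4.15%. Ebf1, a factor of pericytes and adipose precursors, leaned to the pericyte side, with 1026 CPM there and 523 CPM on the smooth-muscle side in the mutant library, and 1027 CPM there and 389 CPM on the smooth-muscle side in the control library. Mef2c, a partner of myocardin in muscle, had a ratio of -0.57 (-0.83 to -0.28) in the mutant and -0.54 (-0.90 to -0.14) in the control library.

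Notch genes were graded too. Of 10 measured, 4 were at least 2-fold higher on the smooth-muscle side in both libraries, beside 4.15% of all genes, and 0 on the pericyte side. Jag1, the Notch ligand that smooth muscle cells pass from layer to layer, had 45.0 CPM in pericyte-side, 112 in between and 368 in smooth-muscle-side mutant cells, and 51.4 CPM in pericyte-side, 74.0 in between and 118 in smooth-muscle-side control cells. Nrarp, a feedback inhibitor induced by Notch, had ratios of -1.64 (-2.06 to -1.17) in the mutant and -1.54 (-2.15 to -0.80) in the control library. Hey2, a target factor of arterial cells, had -1.23 (-1.80 to -0.56) in the mutant and -1.03 (-1.86 to 0.06) in the control library. Nrip2, the fourth, had -3.39 in the mutant and -4.55 in the control library. It stood below 50 CPM on the pericyte side of both libraries and over all mural cells. Its place among the 4 is therefore partly set by the floor. The receptor Notch3 leaned the same way by less than 2-fold, with 320 CPM in pericyte-side, 461 in between and 566 in smooth-muscle-side mutant cells, and 249 CPM in pericyte-side, 273 in between and 306 in smooth-muscle-side control cells.

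The leading genes at the smooth muscle end, by the ratio nearer 0 of both libraries, included genes outside the contractile list. Acan, the large proteoglycan of cartilage and of the arterial wall, had 1.51 CPM in pericyte-side, 35.6 in between and 127 in smooth-muscle-side mutant cells, and 1.51 CPM in pericyte-side, 46.7 in between and 130 in smooth-muscle-side control cells. Its log2 ratio was -6.27 (-8.42 to -4.79) in the mutant and -6.26 (-8.90 to -4.50) in the control library, from 18 UMIs on the smooth-muscle side of the mutant and 11 on that of the control library. Like Myocd, Acan passed the floor through the smooth-muscle side alone. Lmod1, Ppp1r12b, Nrip2, Sytl2, Adarb1 and Trac did so too, with a mean below 50 CPM over all mural cells. All 12 genes named for this end stood below 50 CPM on the pericyte side of both libraries. Their place at this end is therefore partly set by the floor. Cav1, which forms caveolae, had ratios of -3.48 (-3.91 to -3.04) in the mutant and -4.13 (-4.76 to -3.48) in the control library. Cd93, a surface receptor best known from endothelium, had 45.3 CPM in pericyte-side, 299 in between and 530 in smooth-muscle-side mutant cells, and 28.7 CPM in pericyte-side, 210 in between and 389 in smooth-muscle-side control cells. Endothelial cells had 664 CPM of Cd93 in the mutant and 620 CPM in the control library, and the part of endothelial RNA in its levels was not tested. The rule capped Pecam1, Cdh5 and Egfl7, which are 3 of the 14 endothelial markers, so a sum of these markers is no independent measure of it. Trac, listed as the constant segment of the T cell receptor alpha chain, had 9.45, 76.8 and 184 CPM along the axis in the mutant library and 8.57, 54.5 and 118 CPM in the control library. With Lmod1, Actg2, Ppp1r12b, Myocd and Nrip2 above, Mustn1, Adarb1 and Sytl2 complete the 12 named, with ratios between -3.11 and -3.90 in the libraries.

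At the pericyte end stood collagen VI. Col6a1, the first chain of this microfibrillar collagen, had 588 CPM in pericyte-side, 211 in between and 42.4 in smooth-muscle-side mutant cells, and 590 CPM in pericyte-side, 241 in between and 47.1 in smooth-muscle-side control cells. Its log2 ratio was 3.68 (2.67 to 5.24) in the mutant and 3.48 (2.29 to 5.52) in the control library. Col6a2, its partner chain, had 1.65 (1.03 to 2.42) in the mutant and 2.43 (1.42 to 4.00) in the control library, and Col6a3, the third chain, 2.21 (1.20 to 3.78) in the mutant and 1.71 (0.61 to 3.48) in the control library. All 3 chains were thus at least 2-fold higher on the pericyte side in both libraries. With Aspn, which encodes asporin, at 1.16 in the mutant and 1.07 in the control library, they were the 4 of 28 measured interstitial matrix genes that did so. The marker list of Dlk1 and Smoc2 fibroblasts summed to 1618 CPM in pericyte-side and 502 CPM in smooth-muscle-side mutant cells. In the control library it summed to 1442 CPM in pericyte-side and 1049 CPM in smooth-muscle-side cells. The lists of cartilage-like and fibrous valve cells went the other way in the control library. The part of stromal RNA in these matrix levels was not tested. The 2 matrix genes on the smooth-muscle side in both libraries were Ccn1 and Ccn2, secreted matricellular proteins induced by stretch and YAP signalling, with Ccn2 at -3.01 (-3.43 to -2.57) in the mutant and -2.51 (-3.18 to -1.72) in the control library.

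Other leading genes of the pericyte side were named by the same rule. Cygb, which encodes cytoglobin and marks stellate cells and pericytes, had 391 CPM in pericyte-side, 98.7 in between and 70.7 in smooth-muscle-side mutant cells, and 351 CPM in pericyte-side, 136 in between and 11.8 in smooth-muscle-side control cells, the last from 1 UMI. Slc12a2, a sodium, potassium and chloride cotransporter, had ratios of 2.11 (1.01 to 3.88) in the mutant and 2.39 (0.84 to 5.76) in the control library. Plat, tissue plasminogen activator, had 3.02 (1.48 to 6.39) in the mutant and 2.12 (0.57 to 5.49) in the control library. Hic1, a factor of quiescent mesenchymal progenitors, had 99.8 CPM in pericyte-side and 14.1 CPM in smooth-muscle-side mutant cells, and 102 CPM in pericyte-side cells and 0 UMIs in smooth-muscle-side cells of the control library. Set against 3 counts over the control smooth-muscle side, which is 35.4 CPM, Hic1 was at least 2.88-fold higher, Pla1a, a phospholipase, at least 3.16-fold higher, and Nostrin at least 3.04-fold higher on the pericyte side of the control library. Alad, Add3, Mxra7, Chst2 and Tmod3 complete the 12 named there, with ratios between 1.89 and 2.57. All 12, except Cygb in the mutant library, stood below 50 CPM on the smooth-muscle side of both libraries. They passed the floor through the pericyte side, so their place at this end is also partly set by the floor. Over all mural cells each of them stood above 50 CPM in both libraries.

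Among PDGF signalling genes, Pdgfrb and Plat stood at the pericyte end. Pdgfrb had 611 CPM in pericyte-side, 304 in between and 212 in smooth-muscle-side mutant cells, and 519 CPM in pericyte-side, 351 in between and 200 in smooth-muscle-side control cells. Its ratio was 1.5 (1.01 to 2.10) in the mutant and 1.33 (0.69 to 2.16) in the control library. With Plat, a protease that activates the ligand PDGF-CC, it made 2 of 5 measured genes of the list that were at least 2-fold higher on the pericyte side, with 0 on the other. Over all genes 2.1% were higher on the pericyte side. The list as a whole did not lean to that end, with a median log2 ratio of -0.22 in the mutant and -0.16 in the control library. Pdgfa, a ligand of the other PDGF receptor, was at -0.75 (-1.31 to -0.09) in the mutant and -0.94 (-1.70 to 0.05) in the control library. Among transforming growth factor and bone morphogenetic protein genes Id3, a target factor of BMP signalling, had 852 CPM in pericyte-side and 254 CPM in smooth-muscle-side mutant cells, against 899 CPM in pericyte-side and 283 CPM in smooth-muscle-side control cells. Tgfb3, a ligand, went the other way, at -3.45 (-4.06 to -2.81) in the mutant and -2.26 (-3.30 to -0.89) in the control library. These were the 2 of 10 measured genes of that list that were past 2-fold in both libraries.

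The pericyte list as a whole was less one-sided than the contractile list. Of its 28 genes, 15 reached the level floor outside the split, 3 (Cygb, Slc12a2 and Aspn) were at least 2-fold higher on the pericyte side in both libraries and 0 on the smooth-muscle side. Over all genes these shares were 2.1% and 4.15%. The median log2 ratio was 0.93 in the mutant and 0.11 in the control library. Rgs5, a regulator of G protein signalling that chose the cells but not the split, had 1985 CPM in pericyte-side, 2906 in between and 2587 in smooth-muscle-side mutant cells, and 1739 CPM in pericyte-side, 2197 in between and 2169 in smooth-muscle-side control cells. Ndufa4l2 had ratios of -0.37 (-0.56 to -0.17) in the mutant and -0.40 (-0.66 to -0.11) in the control library, and Cox4i2, a hypoxia-linked subunit of cytochrome oxidase, of -0.06 (-0.35 to 0.26) in the mutant and 0.10 (-0.31 to 0.57) in the control library. Both subunits of the nitric oxide receptor leaned slightly to the smooth-muscle side: Gucy1a1 had -0.52 (-0.78 to -0.25) in the mutant and -0.41 (-0.73 to -0.06) in the control library, and Gucy1b1 had -0.49 (-0.81 to -0.14) in the mutant and -0.11 (-0.56 to 0.42) in the control library. Ndufa4l2, Cox4i2, Gucy1a1 and Gucy1b1, which the rule did not use, were therefore present at both ends of the split. The levels of Rgs5 along the split are partly set by the rule, which counted it, and are given as a description.

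Channel and calcium genes differed by member. The channel pair Kcnj8 and Abcc9, neighbours on chromosome 6 at chr6:142564837-142571614 and chr6:142587862-142702315, were used for the split and are given as a description. Kcnj8 had 654, 140 and 49.5 CPM along the axis in the mutant and 593, 101 and 23.6 CPM in the control library, and Abcc9 had 590, 197 and 120 CPM in the mutant and 496, 129 and 11.8 CPM in the control library. Of 14 other measured genes of this list, 3 were at least 2-fold higher on the smooth-muscle side in both libraries, beside 4.15% of all genes, and 0 on the pericyte side. Atp2a2, the calcium pump of the sarcoplasmic reticulum, had -2.09 (-2.42 to -1.72) in the mutant and -1.94 (-2.37 to -1.46) in the control library. Atp2b4, the plasma membrane calcium pump, had -1.47 (-2.12 to -0.68) in the mutant and -1.85 (-2.81 to -0.59) in the control library, and Mrvi1, a target of cGMP-dependent kinase that gates calcium release, had -1.31 (-1.99 to -0.48) in the mutant and -1.35 (-2.13 to -0.36) in the control library. Basement membrane genes, which build the sheet shared with the endothelium, were close to even: 1 of 12 (Hspg2, perlecan) was past 2-fold on the pericyte side and 0 on the other. Beside 2.1% of all genes, this count of 1 gene is no result for the list. Col4a1 and Col4a2 stood at 0.12 and 0.14 in the mutant library and at 0.87 and 0.72 in the control library.

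Receptors and secreted factors held few genes at the level floor. Over all genes 2.1% were at least 2-fold higher on the pericyte side and 4.15% on the smooth-muscle side. A count of 1 gene is therefore no result for its list. Of 5 receptors, 1 was at least 2-fold higher on the pericyte side and 0 on the other: Ramp2, a partner of the adrenomedullin receptor, had 214 CPM in pericyte-side, 126 in between and 21.2 in smooth-muscle-side mutant cells, and 231 CPM in pericyte-side, 129 in between and 82.5 in smooth-muscle-side control cells. Ednra, the endothelin receptor of vascular smooth muscle, had ratios of -1.07 (-1.62 to -0.41) in the mutant and -0.36 (-1.35 to 1.07) in the control library. Of 8 secreted factors, Igf2 and Slit2, a guidance cue, were the 2 on the pericyte side, with Igf2 at 1.02 (0.53 to 1.61) in the mutant and 1.05 (0.51 to 1.72) in the control library. Olfr558, an olfactory receptor gene singled out after its values were seen, had 65.4, 293 and 297 CPM along the axis in the mutant library and 38.8, 164 and 306 CPM in the control library. Pfkp, a glycolytic enzyme, was the 1 of 16 glycolysis and hypoxia genes past 2-fold, at -2.86 (-3.41 to -2.26) in the mutant and -3.82 (-4.63 to -2.96) in the control library. Genes of S phase and of G2 and M phase had 0 members past 2-fold in both libraries on either side.

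**Figure D4:**
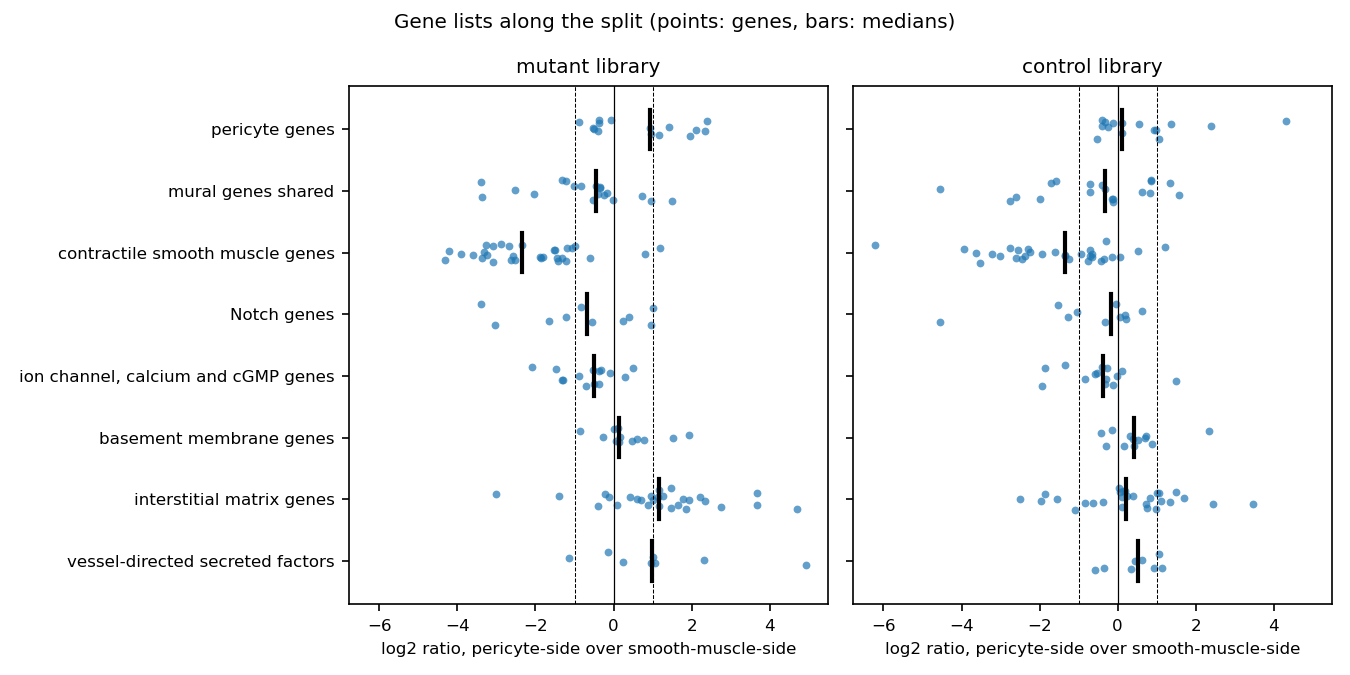
Log2 ratio of pericyte-side over smooth-muscle-side CPM (x axis) for the genes of 8 lists (rows) in the mutant (left panel) and control library (right panel); points are genes, bars are medians, and dashed lines mark 2-fold. The contractile list lies to the left in both panels, with medians of -2.34 in the mutant and -1.35 in the control library.

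The smooth-muscle ends of the libraries differed in some stromal genes, named here after their values were seen. Dcn, which encodes decorin of fibroblasts, had 21.2 CPM (3 UMIs) in mutant and 566 CPM (48 UMIs) in control smooth-muscle-side cells, while pericyte-side cells had 642 CPM in the mutant and 623 CPM in the control library. Vcan, the proteoglycan versican of the valve matrix, had 14.1 CPM in mutant and 200 CPM in control smooth-muscle-side cells, and Apoe 7.07 CPM in mutant and 271 CPM in control ones. The macrophage markers summed to 28.3 CPM in mutant and 1933 CPM in control smooth-muscle-side cells. In the control library 1 smooth-muscle-side barcode, called a doublet, held 222 of the UMIs of 9 myeloid genes and 11039 UMIs in all. Their part in the differences of matrix genes was not tested.

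Between mutant and control mural cells, 48 of 3280 genes were at least 1.5-fold apart. Of these 3280 genes with a mean of at least 50 CPM, 4 (0.122%) stood 2-fold or more above the control level in mutant cells and 3 (0.0915%) stood 2-fold or more below it. At 1.5-fold there were 37 higher (1.13%) and 11 lower (0.335%). The counting interval of each of these 48 genes excluded 0, which the level floor and the 1.5-fold cut largely fix at this depth. The median log2 ratio of mutant over control was 0.00, with quartiles of -0.11 and 0.13. Dicer1 had 51.4 CPM (162 UMIs) in mutant and 54.6 CPM (127 UMIs) in control mural cells, a log2 ratio of -0.09 (-0.43 to 0.26). The labels do not say which exons the loxP sites flank, so 3′ counts check neither recombination nor its absence. Nfatc1, the gene that drives Cre, had 13.6 CPM (43 UMIs) in mutant and 7.74 CPM (18 UMIs) in control mural cells.

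The 4 genes at least 2-fold higher were myeloid genes concentrated in few barcodes. S100a9, S100a8, Stfa1 and Cstdc5 are genes of neutrophils and their precursors. S100a9 had 282 CPM in mutant and 5.59 CPM in control mural cells, a log2 ratio of 5.60 (4.87 to 6.57), and S100a8 238 CPM in mutant and 31.4 CPM in control ones, a ratio of 2.91 (2.57 to 3.29). Stfa1 had 113 CPM in mutant and 6.88 CPM in control cells, and Cstdc5 115 CPM in mutant and 0.86 CPM (2 UMIs) in control cells. A single pericyte-side mutant barcode with 17342 UMIs and 29 UMIs of the 5 mural genes, not called a doublet, held 1592 of the S100a8 and S100a9 UMIs. The other 335 mutant members outside the 3 with at least 20 UMIs of 9 myeloid genes held 46. Without those 3 mutant and 1 control barcodes, S100a9 stood at 8.32 CPM in mutant and 5.62 CPM in control mural cells, a log2 ratio of 0.54, S100a8 had a ratio of 0.28, Stfa1 of -0.09 and Cstdc5 of 1.64. The genes past 2-fold were then 2 higher and 3 lower, the higher ones being Ccn2 (1.03) and Myh11 (1.01).

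Of the 3 genes at least 2-fold lower, Mgp passed the guard against free RNA, by which the higher of the mural levels had to reach the highest level in any comparison class divided by 5, within the same library. It encodes matrix Gla protein, an inhibitor of calcification in arterial wall and cartilage. Mgp, at chr6:136872435-136875823 on the minus strand, had 694 CPM (2189 UMIs) in mutant and 1424 CPM (3311 UMIs) in control mural cells, a log2 ratio of -1.04 (-1.11 to -0.96). The mutant level was lower in pericyte-side cells alone, at -1.02 (-1.11 to -0.94), in female-type mutant cells against female-type control cells, at -1.07, and in male-type mutant cells against female-type control cells, at -0.92. It was also lower in the mutant library in endothelial cells, at 256 CPM in the mutant and 672 CPM in the control library, and in cartilage-like valve cells, which held the most, at 2856 CPM in the mutant and 4586 CPM in the control library. Macrophages had 76.9 CPM in the mutant and 71.6 CPM in the control library. When cells were thinned to 3000 UMIs the mural ratio was -0.74. The other 2 genes at least 2-fold lower were Hbb-bs, a globin, and Ttn, a cardiomyocyte gene below the guard, and both belong to the erythroid and cardiomyocyte marker lists whose sums are given above. Of the 11 genes at least 1.5-fold lower, 7 were Xist, Hbb-bs and the cardiomyocyte genes Tnnc1, Myh7, Tnnt2, Actc1 and Ttn, beside the sex difference of the pools and the lower erythroid and cardiomyocyte sums of the mutant mural cells, whose part was not tested. The other 4 were Mgp, Wdr89, Lsp1 and Paxbp1.

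The remaining lower genes named were smaller in size. Wdr89 had 42.5 CPM in mutant and 74.0 CPM in control mural cells (-0.80, -1.14 to -0.46), and Lsp1, an actin-binding protein of leukocytes and endothelium, 116 CPM in mutant and 179 CPM in control ones (-0.62, -0.83 to -0.42). Igf2, the fetal growth factor, had 430 CPM in mutant and 607 CPM in control cells (-0.50, -0.60 to -0.39), and Igfbp5, which binds it, 180 CPM in mutant and 260 CPM in control cells (-0.53, -0.70 to -0.36). Igf2 was lower in the mutant library in all 6 comparison classes too, with log2 ratios between -0.95 in cartilage-like valve cells and -0.04 in macrophages. Pdlim3, Paxbp1, Ccl2 and the histone gene Hist1h1b had ratios between -0.60 and -0.51. For Ccl2, a chemokine, the ratio was -0.08 when no endothelial UMI was allowed and 0.43 after thinning. Values by sex type were unequal for a pair of these genes. Against female-type control cells, Igfbp5 was at -0.80 in female-type and -0.12 in male-type mutant cells, and Ccl2 at -0.39 in female-type and -2.19 in male-type mutant cells.

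The higher genes named, beside the myeloid ones, held cell cycle, vascular and immediate early genes. Ube2c, which targets mitotic cyclins for destruction, had 189 CPM (595 UMIs) in mutant and 100.2 CPM (233 UMIs) in control mural cells, a ratio of 0.91 (0.69 to 1.14). Ccna2, cyclin A, had 76.4 CPM in mutant and 44.7 CPM in control cells (0.77, 0.44 to 1.12). In endothelial cells, Ccn3 and Tcf21 fibroblasts and cartilage-like valve cells the ratio was 0.49, 0.55 and 0.70 for Ube2c. For Ccna2 it was 0.54, 0.45 and 0.65. In cardiomyocytes it was -0.18 for Ube2c and -0.26 for Ccna2, and in Dlk1 and Smoc2 fibroblasts -0.09 and 0.19. Aoc3, an amine oxidase at the surface of smooth muscle cells, had 108 CPM in mutant and 60.6 CPM in control cells (0.83, 0.54 to 1.12). Without thinning, Aoc3 had a UMI in 51.5% of mutant and 27.6% of control mural cells, shares that are not at equal depth. Its ratio was 0.49 when cells were thinned to equal depth. Gja4, connexin 37, had 96.1 CPM in mutant and 54.6 CPM in control cells (0.81, 0.51 to 1.13), and a ratio of -0.14 in endothelial cells. Ccn2 had 110 CPM in mutant and 61.5 CPM in control cells (0.84, 0.56 to 1.13), and 0.41 (0.02 to 0.80) within pericyte-side cells. Btg2, an early response gene that restrains proliferation, had 115 CPM in mutant and 62.8 CPM in control cells (0.87, 0.59 to 1.16), and 0.56 after thinning. Its ratio was above 0 in all 6 comparison classes too, between 0.10 in cardiomyocytes and 1.45 in cartilage-like valve cells. The higher levels of Btg2, Ube2c and Ccna2 were therefore not confined to mural cells.

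Some of the 37 genes were also genes of the smooth-muscle side. They were Cd93, Gja4, Reln, Cav1, Actg2, Olfr558, Cryab, Ccn2, Gadd45b, Itga7 and Aoc3, which are 11 of the 37 (29.7%) and 11 of the 136 smooth-muscle-side genes (8.09%), named because they are the whole overlap. Over all genes of each comparison, 1.13% were 1.5-fold higher in the mutant library and 4.15% stood on the smooth-muscle side. Cd93, Cav1 and Cryab were below the guard against free RNA in the mutant over control comparison. Among the 69 pericyte-side genes, which are 2.1% of all, the count was 1 (Gpx3). Within pericyte-side cells alone, 6 of the 11 were still at least 1.5-fold higher in the mutant library. Myh11, used by the rule, had 154 CPM in mutant and 81.7 CPM in control mural cells, and mutant cells with 2 or more Myh11 UMIs were 13.3% of members against 7.69% in the control library. The part of the share of such cells in these 11 ratios was not tested beyond the values within pericyte-side cells.

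**Figure D5:**
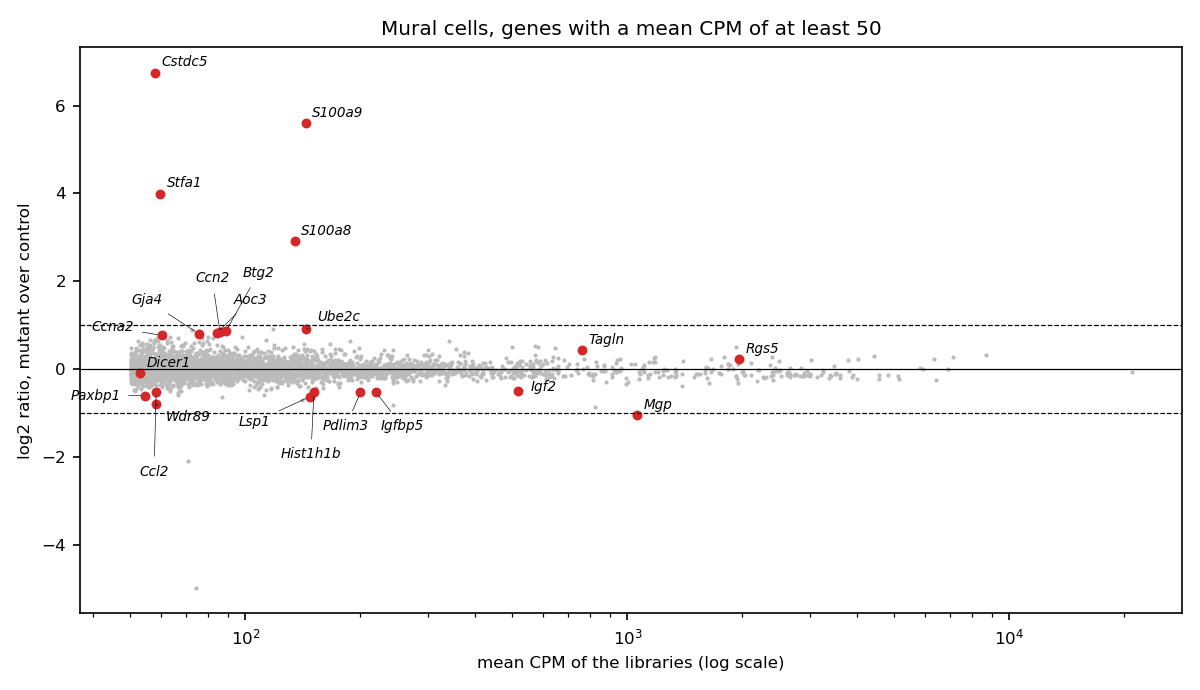
Log2 ratio of mutant over control CPM (y axis) against the mean CPM of the libraries (x axis, log scale) for the 3280 genes with a mean of at least 50 CPM in mural cells. Red points are the reported genes that the naming rule picked for this comparison, with Dicer1, Tagln and Rgs5. Other genes that the text gives for this comparison are grey. Dashed lines mark 2-fold, and the quartiles of all points are -0.11 and 0.13.

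By list, genes of mural identity had median ratios above 0. The pericyte list includes Rgs5, Kcnj8, Abcc9 and Higd1b, and the contractile list includes Myh11. The rule chose the cells by these genes, so the medians and counts of both lists are given as a description. Kcnj8 and Abcc9 are also in the channel and calcium list, and Higd1b is in the glycolysis and hypoxia list. Of 19 measured pericyte genes, 1 was at least 1.5-fold higher in the mutant library, beside 1.13% of all genes, and 0 lower, with a median log2 ratio of 0.19 against 0.00 over all genes. The quartiles over all genes were -0.11 and 0.13. The one was Colec11, a collectin of the lectin complement pathway, with 417 CPM in mutant and 265 CPM in control mural cells (0.65, 0.52 to 0.80). At equal depth Colec11 had a UMI in 62.0% of mutant (56.3 to 67.5) and 48.4% of control mural cells (42.8 to 54.1), against 1.75% of mutant and 5.10% of control endothelial cells, and without thinning in 83.1% of mutant and 65.8% of control mural cells. Of 18 shared mural genes, 2 (Itga7 and Epas1) were higher and 0 lower, with a median of 0.31. Itga7, a laminin receptor of muscle, had 79.0 CPM in mutant and 47.7 CPM in control cells, and Epas1, the hypoxia-inducible factor of vessels, 63.8 CPM in mutant and 40.8 CPM in control cells. Pdgfrb was at 0.19 (0.08 to 0.30), Notch3 at 0.45 (0.30 to 0.60), and Mcam, an adhesion molecule of vessels, at 0.32 (0.19 to 0.45).

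Of 26 contractile genes, 3 (Actg2, Cryab and Myh11, the last used by the rule) were higher and 0 lower, with a median of 0.18. Over all genes 1.13% were 1.5-fold higher in the mutant library and 0.335% lower. Acta2 had 1963 CPM in mutant and 1621 CPM in control mural cells (0.28, 0.22 to 0.34), and Tagln 872 CPM in mutant and 648 CPM in control cells (0.43, 0.34 to 0.52). Within the 12 mutant and 9 control smooth-muscle-side cells the mutant over control ratio was 0.75 (0.61 to 0.90) for Acta2, 1.24 (1.02 to 1.47) for Tagln and 0.98 (0.72 to 1.26) for Myl9, as the plot of levels along the split shows. In pericyte-side cells the ratio was 0.04 (-0.04 to 0.12) for Acta2, 0.19 (0.06 to 0.32) for Tagln and 0.37 (0.22 to 0.53) for Myl9. None of the 9 Notch, 5 PDGF, 9 TGF-beta and BMP, 15 channel and calcium, 12 basement membrane, 13 transcription factor and 4 receptor genes measured was 1.5-fold apart, and their medians lay between -0.06 and 0.27. The 10 vessel-directed secreted factors had a median of -0.15 with 0 past 1.5-fold in either direction, and 2 of 30 interstitial matrix genes (Ccn2 and Thbs1) were higher, with 0 lower. Of these, Thbs1 was below the guard against free RNA.

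The lists of microRNA targets had medians near 0. Of 14 measured let-7 targets, 1 (Thbs1) was 1.5-fold higher, beside 1.13% of all genes, and 0 lower, with a median of 0.01. Thbs1 was below the guard against free RNA. It was higher in the mutant library in all 6 comparison classes too, with log2 ratios between 0.33 in endothelial cells and 1.14 in cardiomyocytes. Igf2bp1 had 46.9 CPM (148 UMIs) in mutant and 46.9 CPM (109 UMIs) in control mural cells, and Igf2bp3 57.7 CPM in mutant and 59.3 CPM in control mural cells. The 8 measured genes of microRNA processing and host transcripts had a median of 0.16 with 0 past 1.5-fold. This median lay above the upper quartile of all genes, which was 0.13. Of 9 measured targets of miR-143 and miR-145, microRNAs of smooth muscle, 0 were past 1.5-fold and the median was -0.05. Carmn, the host transcript of that pair, had 31.1 CPM (98 UMIs) in mutant and 21.5 CPM (50 UMIs) in control mural cells, a log2 ratio of 0.53 (0.03 to 1.05). Meg3, an imprinted host transcript of a large microRNA cluster, had 2258 CPM in mutant and 1596 CPM in control cells (0.50, 0.44 to 0.56), and H19, which hosts miR-675, 1053 CPM in mutant and 1208 CPM in control cells (-0.20, -0.27 to -0.12).

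Cell cycle genes split by phase. The counts of this paragraph stand beside 1.13% of all genes 1.5-fold higher and 0.335% lower. A count of 1 gene is therefore no result for its list. Of 19 measured genes of G2 and M phase, 1 (Ube2c) was 1.5-fold higher and 0 lower, with a median of 0.45. Of 10 measured S phase genes 0 were past 1.5-fold, and the median was -0.05. Top2a, which untangles replicated DNA, had 266 CPM in mutant and 196 CPM in control mural cells (0.44, 0.27 to 0.61). At 3000 UMIs per cell, 27.1% of 303 mutant mural cells (22.1 to 32.4) and 24.7% of 320 control ones (20.1 to 29.8) had at least 5 UMIs of the G2 and M genes, which overlap. In endothelial cells, by the same count, the share was 43.0% in the mutant and 32.9% in the control library, and in Dlk1 and Smoc2 fibroblasts it was 20.1% in the mutant and 21.0% in the control library. Of 20 immediate early genes, 3 (Btg2, Junb and Gadd45b) were higher and 0 lower, with a median of 0.31. Junb, a subunit of the AP-1 factor that dissociation can induce, had 229 CPM in mutant and 147 CPM in control mural cells, and the part of dissociation was not tested. Of 16 glycolysis and hypoxia genes, 1 (Epas1) was higher and 0 lower, with a median of 0.10.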

How the data were processed

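Per the labels' protocols, leaflet cells of pooled hearts were sorted by 7-AAD and prepared with the 10x 3′ kit (version 3). Per the submitters' processing notes, Cell Ranger 5.0.0 and mm10 were used. Deposited values are whole-number UMI counts (not normalized) of 32285 genes by barcode, with 8250 barcodes and 69475632 UMIs in the mutant and 12793 barcodes and 70221728 UMIs in the control library; whether introns were counted is not given in the sources used here. Barcodes with at least 500 genes, 1000 UMIs and under 20% mitochondrial UMIs were kept, and the member rule was applied to their counts. The members and the 30 gene lists were chosen with earlier results of these data known.

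Counts were summed per library and side and scaled to CPM. Log2 ratios used 0.5 added counts and exact conditional Poisson 95% intervals, and shares used exact Clopper-Pearson intervals; UMI sums of cells of 1 library are not replicates, so no p-value is given. Genes needed a mean of 50 CPM. Named genes were the 10 highest and 10 lowest mutant over control ratios past the guard (as in the report) and the 12 highest and 12 lowest side ratios past a looser guard, where the higher side level of at least 1 library had to reach the highest comparison class level divided by 5, with erythroid, mitochondrial, ribosomal, sex-linked, predicted and rule genes left out, beside Dicer1, Nfatc1, the rule genes and list members. Comparison classes were taken by marker counts; a first limit of 1500 cardiomyocyte UMIs per 10000 held no barcode, so 300 was set after that was seen. Doublets were called by Scrublet (scanpy 1.11.5) and kept in the values reported, since the rule has no doublet step. The computation was tested on simulated counts. Numpy 2.4.6, scipy 1.17.1, pandas 2.3.3, edgeR 4.0.16 (TMM factors only) in R 4.3.3 and Python 3.11.15 were used. A gene that the naming rule picked is not reported here. Of the list symbols 4 were not found in the files (Mkl1, Mkl2, Mir143hg, Aldoa). Promoter windows came from RefSeq (GRCm38.p6) and gene positions from GENCODE M21 (mm10).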

Additional observations from a re-analysis of the deposited data

Results flagged for a closer look

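Postn, S100a8 and Stfa1 were set apart because their ratio had opposite signs in groups under the same contrast, and none of these differences was tested. Postn, which encodes periostin of fibroblasts and cushion mesenchyme, had a log2 ratio of mutant over control of 0.19 in pericyte-side cells and of -1.17 in smooth-muscle-side cells. It had 2030 CPM in mutant and 1774 CPM in control pericyte-side cells, and 396 CPM in mutant and 896 CPM in control smooth-muscle-side cells, which are 12 mutant and 9 control cells. S100a8 had a log2 ratio of pericyte-side over smooth-muscle-side cells of 6.32 in the mutant and of -6.97 in the control library, and a ratio of mutant over control of 5.61 in pericyte-side and of -7.68 in smooth-muscle-side cells. Stfa1 had a ratio of pericyte-side over smooth-muscle-side cells of 3.66 in the mutant and of -5.24 in the control library, and a ratio of mutant over control of 5.35 in pericyte-side and of -3.54 in smooth-muscle-side cells. A pericyte-side barcode of the mutant library held 1592 UMIs of S100a8 and S100a9, and a smooth-muscle-side barcode of the control library held 61.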

How the results depend on the processing

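The shares and counts below were recomputed with 1 choice changed at a time. The mural share of the libraries was 4.70% in the mutant and 2.54% in the control library with a mural sum of at least 10 UMIs, 3.48% in the mutant and 2.37% in the control with no endothelial UMI allowed, and 2.65% in the control with every cell thinned to 3000 UMIs. The pericyte-side share was 79.5% in the mutant and 76.8% in the control library after thinning, 76.3% in the mutant and 73.2% in the control when the split asked for 4 UMIs, and 81.9% in the control with a mural sum of at least 3. The 4 genes 2-fold higher in mutant mural cells became 9 after thinning, 7 among female-type cells, 14 at a mean of 20 CPM, 1928 with no floor, 2 at 100 CPM and 2 without the myeloid barcodes. The 3 lower genes became 1 after thinning, 6 among female-type cells, 8 at 20 CPM, 1503 with no floor and 1 at 100 CPM. The 69 genes of the pericyte side became 152 at 20 CPM, 350 with no floor, 33 at 100 CPM and 20 with the between cells joined to the smooth-muscle side. The 136 genes of the smooth-muscle side became 257 after thinning, 291 at 20 CPM, 4778 with no floor, 64 at 100 CPM and 70 with the between cells joined. With no floor, genes of few counts enter by construction; the other causes were not tested.

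The ratio of mutant over control changed sign for S100a8, at -2.36 with no endothelial UMI allowed and -2.53 among female-type cells, and for Stfa1, at -2.07 with no endothelial UMI allowed, -1.11 among female-type cells and -0.092 without the myeloid barcodes. Of 324 recomputed ratios of named genes 316 kept their sign, the other changes being Ccl2 at 0.43 after thinning, Dicer1 at 0.03 by the mean of per-cell values and Kcnj8 at -0.11 among female-type cells. Of 748 side ratios 744 kept it, and the 4 others were of Mcam in the control library, between 0.05 and 0.31. Leaving out the myeloid barcodes, joining the between cells and thinning with a mural sum of at least 3 were chosen after seeing the data. No paired analysis was possible because each genotype has 1 library and the labels give no shared replicate number. Depth limits the smooth-muscle side most, where 3 counts are 21.2 CPM in the mutant and 35.4 CPM in the control library.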
